A study of Mus musculus with 4 samples.

Results

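The genes described here encode voltage-gated sodium channels, voltage-gated calcium channels and the proteins that store, release and remove calcium in heart muscle. They were chosen by name: every sodium channel (Scn), calcium channel (Cacn), ryanodine receptor, inositol trisphosphate receptor, calcium pump, calsequestrin and calcium/calmodulin kinase II gene on the array, together with Pln, Jph2, Slc8a1, Hrc, Trdn and Asph. This gave 63 of 27376 gene names, measured by 143 probes, and each gene is described by its brightest probe over all arrays. Of the 63 genes, 46 were bright enough to be tested, 43 of them well above background on all 4 arrays, and 11 of the 63 were well above background on no array.

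The RNA came from the left ventricle of C57BL/6 mice taken 7 days after myocardial infarction, which was made by tying off the left anterior descending artery. Mice were 8 to 10 weeks old and all 4 samples are labelled male. Both WT and KO hearts were infarcted, so no uninjured heart enters any comparison. The KO animals lack KDM5B, a demethylase of histone H3 lysine 4, through a CRISPR/Cas9 deletion in the catalytic JmjC domain that shifts the reading frame and is carried in every cell of the body. Each group had 2 arrays, named WT 2, WT 3, KO 2 and KO 3 after the numbers in the labels, and the question was how genotype bears on the infarcted ventricle.

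Every heartbeat begins when sodium channels open and depolarise the cardiomyocyte. The depolarisation opens L-type calcium channels, and the calcium that enters makes ryanodine receptors release a larger amount from the sarcoplasmic reticulum, the internal calcium store, which starts contraction. Relaxation follows as SERCA pumps return calcium to the store under the brake of phospholamban and the sodium-calcium exchanger moves the rest out of the cell. Inositol trisphosphate receptors and plasma membrane pumps do related work in most cell types, including the fibroblasts, macrophages and endothelial cells of a healing infarct.

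Before the results, 3 features of the arrays bear on what follows. The 75th percentile of the processed signal lay between 607.6 and 976.1, no spot was saturated, and the share of probes well above background ran from 68.2% to 72.0%. Xist, the RNA of the inactive X chromosome, was bright on WT 2 and KO 2 and at the level of negative controls on WT 3 and KO 3, while Y-linked Ddx3y was bright only on WT 3 and KO 3, so the arrays numbered 2 go against their male label and number is tied to this difference. KO 2 also carried the atrial light chains Myl7 and Myl4 at levels of 6.39 and 5.46, where WT 2 had -0.70 and -0.63 and KO 3 had 0.23 and -0.65, although the samples are labelled as ventricle. A level is the log2 processed signal minus the log2 of that array's 75th percentile, so that 1 unit is a 2-fold difference, and levels are compared between arrays for the same probe only. Kdm5b itself, on its brighter probe, stood at -0.87 (WT 2), -1.81 (WT 3), -2.40 (KO 2) and -2.26 (KO 3). Its difference between groups was -0.996 (SE 0.40, limma adjusted p = 0.9999), and whether the probe lies in the deleted part was not determined here.

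Markers of heart muscle cells put the arrays in a clear order. The mean level of 12 contractile and metabolic cardiomyocyte markers, such as Myh6, Tnni3 and Mb, was 7.27 (WT 2), 6.08 (WT 3), 8.21 (KO 2) and 5.36 (KO 3). All 12 of 12 markers were well above background on every array and all 12 had the order KO 2, WT 2, WT 3, KO 3 from high to low. The 7 macrophage markers measured had means of 2.56, 3.15, 1.20 and 3.52 on the arrays in the order WT 2, WT 3, KO 2 and KO 3, and 6 of the 7 ran in exactly the opposite order. The 8 fibroblast markers averaged 6.03, 6.01, 5.13 and 5.95. High signal on KO 2 was not limited to cardiomyocyte markers. The 7 endothelial markers averaged 2.03, 2.17, 2.58 and 1.93, also highest on KO 2 and lowest on KO 3. Of these 7, 1 had the full order of the cardiomyocyte markers. The 5 smooth muscle markers went the other way, at 2.58, 3.38, 2.37 and 3.96. The KO arrays thus lay at both extremes of cardiomyocyte marker signal, and the part of cell makeup in the results below was not tested. In RNA from whole tissue, fewer cells of a type and less RNA per cell cannot be told apart.

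No member passed the test of KO against WT. Of the 46 tested members, 0 were called by limma at the threshold used here, an adjusted p under 0.05 with over 2-fold, against 0% of all 28305 tested probes, and every member had an adjusted p of 0.9999. At an unadjusted p under 0.05 the count was again 0 members, against 1.59% of the 18449 genes tested. The methods' t-test, adjusted in the same way, also called 0. With 2 arrays against 2, an exact two-sided permutation test of a gene's values cannot fall below p = 0.333.

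The 2 KO arrays lay above the 2 WT arrays for 4 of 46 members (8.7%), against 12.9% of all genes. They lay below for 3 members (6.52%), against 10.7%. Both shares were under the background. The median difference of the tested members was 0.15 on the log2 scale, with 32 of 46 higher in KO (69.6% against 52.6% of all genes), and the median over all genes was 0.02. The members' median was -0.21 without KO 2, 0.73 without KO 3, 0.32 without WT 2 and -0.03 without WT 3. The count above both WT arrays was 12, 31, 9 and 8 in these same leave-outs, and the count below was 26, 10, 7 and 3. With an array left out the rule for a count is easier to meet, so both counts could only stay or rise. Leaving out any 1 of the 4 arrays moved the median by over 1.5 times or turned its sign. With normexp background correction the count above both WT arrays was 11. Shares over all genes were not counted under these other settings.

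Within the array numbers the members split in opposite directions. Comparing KO 2 with WT 2, 34 of 46 members (73.9%) were higher in KO, against 51.4% of all genes, and the median member difference was 0.46. Comparing KO 3 with WT 3, 31 of 46 (67.4%) were lower in KO, against 47.7% of all genes, with a median of -0.14 (0.02 with normexp). Members that did both numbered 25 (54.3%), against 26.4% of all genes. More than 2-fold higher in KO at number 2 were 9 members (19.6%), against 6.77% of genes, and more than 2-fold lower in KO at number 3 were 2 (4.35%), against 1.93%, namely Pln and Ryr2. With 1 array per genotype at each number, these differences have no replicate check.

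The order of the cardiomyocyte markers, with KO 2 highest and then WT 2, WT 3 and KO 3, was shared by 23 of 46 members (50%), against 18.2% of all genes. With normexp it was 17 members, against 14.8% of genes. The reverse order held for 4 members (8.7%), against 18.1%. The 23 were spread unevenly over the roles, as the next paragraphs describe, and the atrial transcripts and Xist also set KO 2 apart from KO 3. Their part in the result was not tested.

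**Figure D1:**
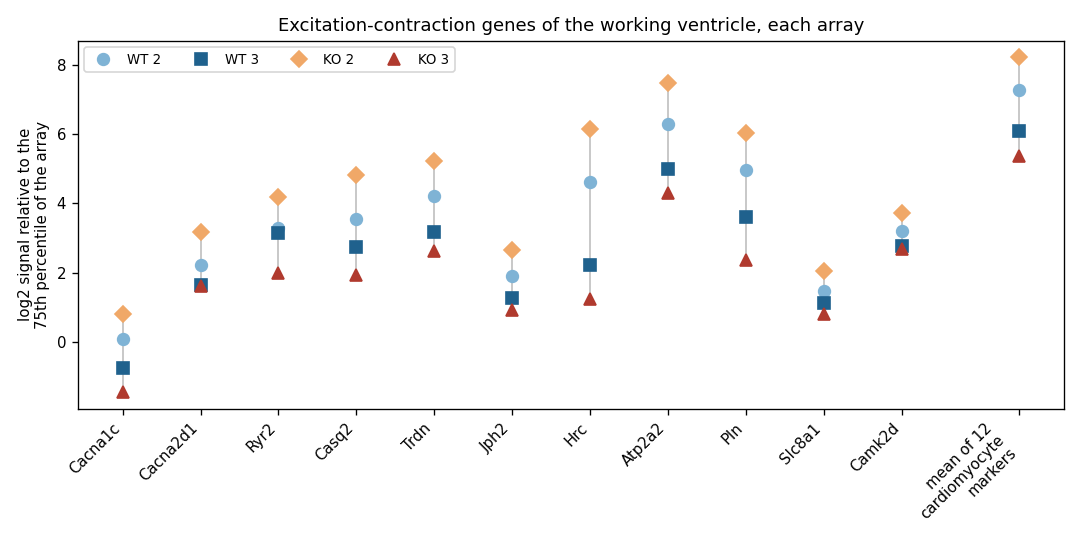
Level of 11 excitation-contraction genes on each array (log2 signal relative to the array's 75th percentile) beside the mean of the 12 cardiomyocyte markers. Each point is 1 array and grey lines join the lowest to the highest, with heights comparable between arrays for a gene and not between genes. In every column KO 2 is highest and KO 3 lowest, and both WT arrays lie between them, from 7.46 to 4.29 for Atp2a2 and from 6.14 to 1.23 for Hrc.

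The 3 probes below are shown for Hrc, which had the widest span over the arrays, Casq1, which had the largest group difference, and Slc8a1, the exchanger, because their genome coordinates cover more bases than the 60 of the oligonucleotide. Such a probe joins sequence from separate exons and so reads spliced RNA. They are the brightest probes of Hrc (mm9 chr7:52593267-52593524, plus strand), Casq1 (chr1:174140602-174142105, minus strand) and Slc8a1 (chr17:81785355-81788176, minus strand), whose 60 bases extend over 258, 1504 and 2822 bases of the genome. All letters are in lower case as no part is singled out.
Hrc: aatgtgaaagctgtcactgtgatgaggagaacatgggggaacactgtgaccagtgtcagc
Casq1: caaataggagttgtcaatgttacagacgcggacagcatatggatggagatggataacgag
Slc8a1: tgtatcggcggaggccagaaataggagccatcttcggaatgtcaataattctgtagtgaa

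The store and its junction with the surface membrane held the member with the widest span over the arrays, Hrc. All 6 tested members of this role, Hrc, Casq2, Casq1, Trdn, Jph2 and Asph, had the cardiomyocyte order, which Casq1 lost with normexp, being 0.47 higher in KO at number 3. Hrc, a histidine-rich calcium-binding protein inside the store, stood at 4.62 (WT 2), 2.22 (WT 3), 6.14 (KO 2) and 1.23 (KO 3). Both KO arrays lay outside the WT range, on opposite sides. The Hrc difference was 0.27 (SE 2.00), or 1.52 at number 2 and -0.99 at number 3.

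Casq2, the cardiac calsequestrin that buffers stored calcium, measured 3.54, 2.76, 4.81 and 1.93 on WT 2, WT 3, KO 2 and KO 3. Trdn, which encodes triadin and links calsequestrin to the release channel, measured 4.20, 3.17, 5.22 and 2.64 in the same order of arrays. Junctophilin 2 (Jph2), which holds the store against the transverse tubule, measured 1.91, 1.28, 2.66 and 0.92. The differences between groups were 0.23 (SE 1.11), 0.24 (SE 1.03) and 0.20 (SE 0.70) for these 3 genes, each smaller than its SE.

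Casq1, the calsequestrin typical of skeletal muscle, gave the largest difference of the tested members at 1.16 (SE 1.23). It rested on KO 2 alone: the level was -2.37 there, -5.15 and -5.21 in WT and -5.68 on KO 3, and on KO 3 the probe was not well above background. The 8 skeletal muscle markers averaged -0.69, -0.97, -0.23 and -0.97 on WT 2, WT 3, KO 2 and KO 3, and 7 of 8 were well above background on all arrays. Without KO 2 the Casq1 difference was -0.50.

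Among the release channels, Ryr2 had the cardiomyocyte order on its brightest probe and Ryr1 and Ryr3 did not. All 3 were highest on KO 2 and next highest on WT 2, so that they differed only in the places of WT 3 and KO 3. Ryr2, the ryanodine receptor of the heart, stood at 3.30 (WT 2), 3.16 (WT 3), 4.19 (KO 2) and 2.00 (KO 3), a difference of -0.14 (SE 0.83) that was 0.88 at number 2 and -1.16 at number 3. The WT arrays were close together and the KO arrays far apart. Ryr1 and Ryr3, known mainly from skeletal muscle and brain, differed by 0.42 (SE 0.49) and 0.56 (SE 0.42) and were higher in KO at both numbers, by 0.66 and 0.18 for Ryr1 and by 0.73 and 0.39 for Ryr3. The other tested probes of Ryr2 had the opposite sign, at 0.07 and 0.24, and the second of these lacked the order, with WT 3 above WT 2. The other tested probe of Ryr3 gave 0.76 at number 2 and -0.05 at number 3.

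The inositol trisphosphate receptors did not share the pattern. Itpr1 stood at 2.50, 2.87, 2.37 and 2.66 on WT 2, WT 3, KO 2 and KO 3, Itpr2 at 2.62, 2.93, 2.52 and 3.06, and Itpr3 at 1.97, 1.98, 1.85 and 2.40. All 3 were lower on KO 2 than on WT 2, by 0.10 to 0.13 as log2 sizes, and Itpr2 and Itpr3 ran in the reverse of the cardiomyocyte order. The group differences were -0.17 (SE 0.27), 0.02 (SE 0.30) and 0.15 (SE 0.29). Of the 5 tested probes of Itpr2, 3 had a positive difference. That at chr6:146240083-146240142 was higher in KO at both numbers, by 0.21 and 0.34, and so lacked the reverse order. The other tested probe of Itpr1 differed by -0.34, with KO lower at both numbers, at -0.37 and -0.32.

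Of the 4 genes of uptake into the store, 3 had the cardiomyocyte order, namely Atp2a2, Pln and Atp2a1, and Atp2a3 did not. Atp2a2, the SERCA pump of the heart, stood at 6.29 (WT 2), 5.0 (WT 3), 7.46 (KO 2) and 4.29 (KO 3), with a difference of 0.23 (SE 1.27) that was -0.12 with quantile normalization. Pln, encoding its inhibitor phospholamban, stood at 4.97, 3.61, 6.04 and 2.36. Pln was the only tested member more than 2-fold higher in KO at number 2, by 1.07, and more than 2-fold lower in KO at number 3, at -1.25, so that its group difference was -0.09 (SE 1.45). With quantile normalization Pln was 0.69 higher in KO at number 2, and Hrc instead passed 2-fold in both directions, at 1.12 and -1.05. Atp2a1, the fast skeletal muscle pump, measured -0.07, -1.32, 1.19 and -2.04 and had the cardiomyocyte order. Atp2a3, a pump of non-muscle cells, measured -0.28, -0.47, -0.44 and -0.16, within a much narrower range.

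At the surface membrane, Slc8a1, the sodium-calcium exchanger, measured 1.48 (WT 2), 1.13 (WT 3), 2.06 (KO 2) and 0.81 (KO 3), a difference of 0.13 (SE 0.51). Atp2b1, a plasma membrane calcium pump present in most cells, measured 1.20, 1.51, 0.93 and 1.67 and ran in the reverse order, with a difference of -0.05 (SE 0.36). Atp2b2 was higher on KO 2 than on WT 2 by 1.63 and lower on KO 3 than on WT 3, at -0.70, but was not well above background on WT 2.

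Among the sodium channel pores, Scn7a, a sodium-sensing channel of glia and other non-muscle cells, did not have the cardiomyocyte order. It measured -2.64, -1.50, -2.77 and -2.02 on WT 2, WT 3, KO 2 and KO 3, with a difference of -0.33 (SE 0.54). Scn10a had the highest KO minus WT value of the tested members at number 3, 1.03 beside -0.09 at number 2. Scn1a, Scn3a, Scn8a, Scn9a and Scn11a were too dim to test.

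Beta subunits set the gating and membrane placement of the sodium channel pore. Scn2b and Scn3b differed by -0.32 (SE 0.52) and -0.02 (SE 0.26), and Scn3b was instead 0.0040 higher in KO with quantile normalization, 0.012 higher with a median shift and 0.10 higher with normexp. Scn4b was not analysed here, as no probe carries that name.

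L-type calcium channel pores admit the calcium that triggers release. Cacna1c, the pore of the ventricular myocyte, measured 0.10 (WT 2), -0.75 (WT 3), 0.80 (KO 2) and -1.44 (KO 3), with a difference of 0.01 (SE 0.90). Cacna1s, its skeletal muscle relative, measured 0.58, -2.20, 1.29 and -2.29, so that the arrays numbered 2 stood far above those numbered 3, and KO 3 lay 0.08 above WT 3 with normexp. Cacna1d, the pore of pacemaker and atrial cells, differed by 0.31 (SE 0.32) and was higher in KO at both numbers, by 0.10 and 0.52. The other tested probe of Cacna1d gave -0.04 and 0.07. The T-type pores Cacna1g and Cacna1h, at differences of -0.05 (SE 0.84) and 0.21 (SE 0.79), both had the cardiomyocyte order, which Cacna1h lost with normexp, being 0.09 higher in KO at number 3. Cacna1b, Cacna1e, Cacna1f and Cacna1i were not well above background on any array.

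The accessory subunits of calcium channels, which control pore number and gating, fell into both patterns. Cacna2d1, the main alpha2delta subunit of heart muscle, measured 2.24, 1.65, 3.17 and 1.62 on WT 2, WT 3, KO 2 and KO 3, and Cacnb2, the main cardiac beta subunit, measured -0.89, -1.55, -0.11 and -2.12. Both had the cardiomyocyte order. Cacnb3 gave the lowest difference of the tested members, at -0.64 (SE 0.70), through KO 2: it stood at 0.23 (WT 2), 0.45 (WT 3), -1.20 (KO 2) and 0.61 (KO 3). Cacng8, Cacng2 and Cacng7, gamma subunits known mainly from brain, differed by 0.51, 0.18 and 0.11. On WT 2 the Cacng8 probe was not well above background, and it entered the test through the KO arrays, and the Cacng7 levels of KO 2 and WT 2 were both -3.30. Cacng1, the gamma subunit of skeletal muscle, was well above background on WT 3 and KO 3 only and was not tested.

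Of the calcium/calmodulin kinase II genes, which encode kinases that phosphorylate the release channel and phospholamban, Camk2d, Camk2a and Camk2b had the cardiomyocyte order, which Camk2a lost with normexp, being 0.09 higher in KO at number 3. Camk2d, the main cardiac form, measured 3.21 (WT 2), 2.78 (WT 3), 3.71 (KO 2) and 2.69 (KO 3), a difference of 0.21 (SE 0.45). Its other tested probes parted. That at chr3:126512365-126512424 kept the order. Those at chr3:126537519-126541191 and chr3:126545798-126545857 did not, being higher in KO at both numbers, by 0.11 and 0.06 and by 0.38 and 0.21. Camk2a measured 0.20, -1.46, 1.52 and -1.50, which gave the second highest difference of a tested member at 0.64 (SE 1.27). Camk2g was higher on both KO arrays, at 2.87 and 2.63 against 2.58 and 2.41 in WT, with a difference of 0.26 (SE 0.23) that was 0.29 at number 2 and 0.23 at number 3.

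**Figure D2:**
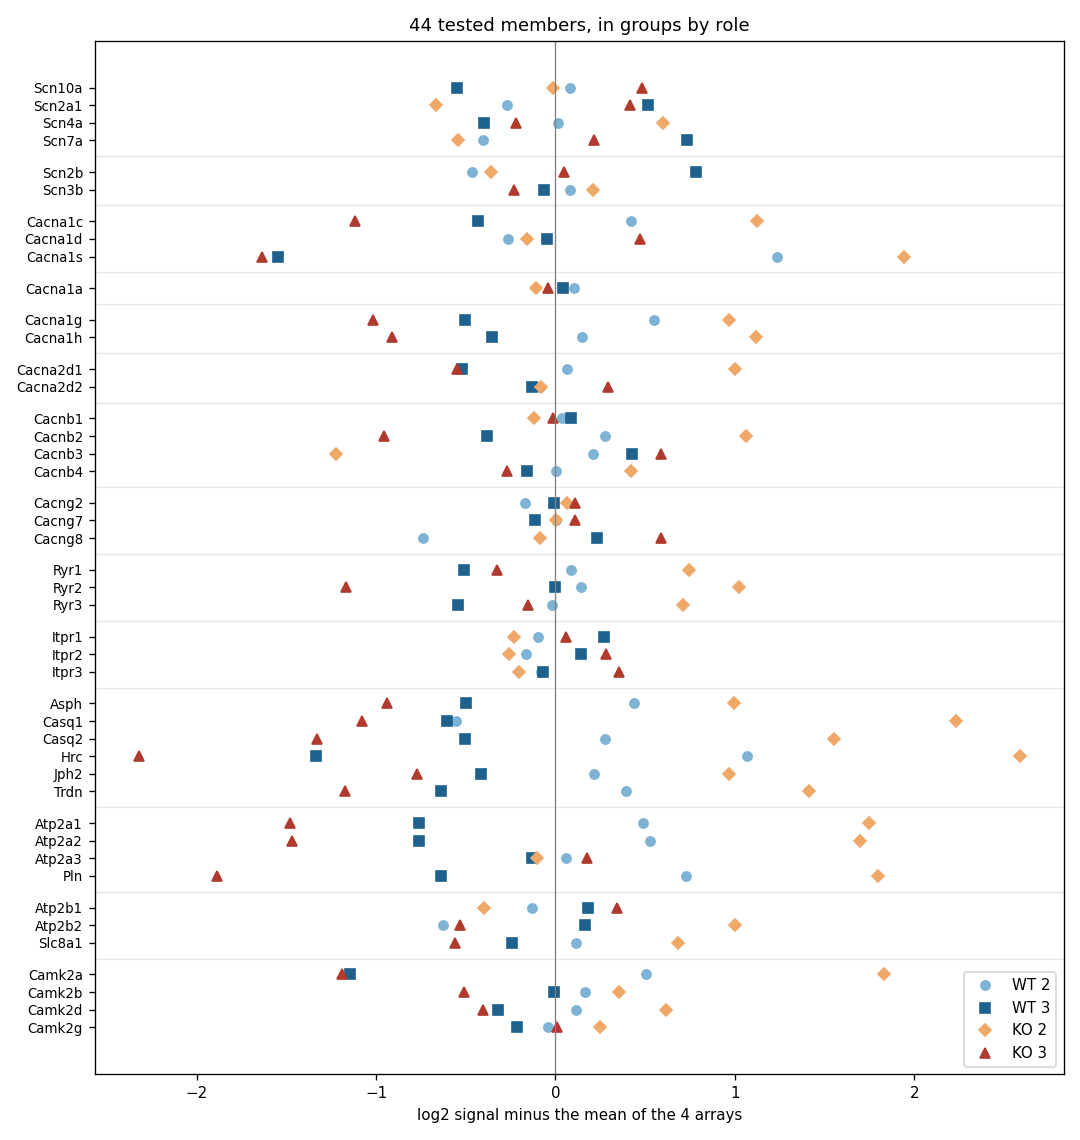
Level of 44 of the 46 tested members on each array, as the log2 difference from its mean over the 4 arrays, grouped by role from sodium channel pores at the top to calcium/calmodulin kinase II at the bottom. All 6 store and junction genes run from KO 3 on the left to KO 2 on the right, while the 3 inositol trisphosphate receptors have KO 2 on the left.

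**Figure D3:**
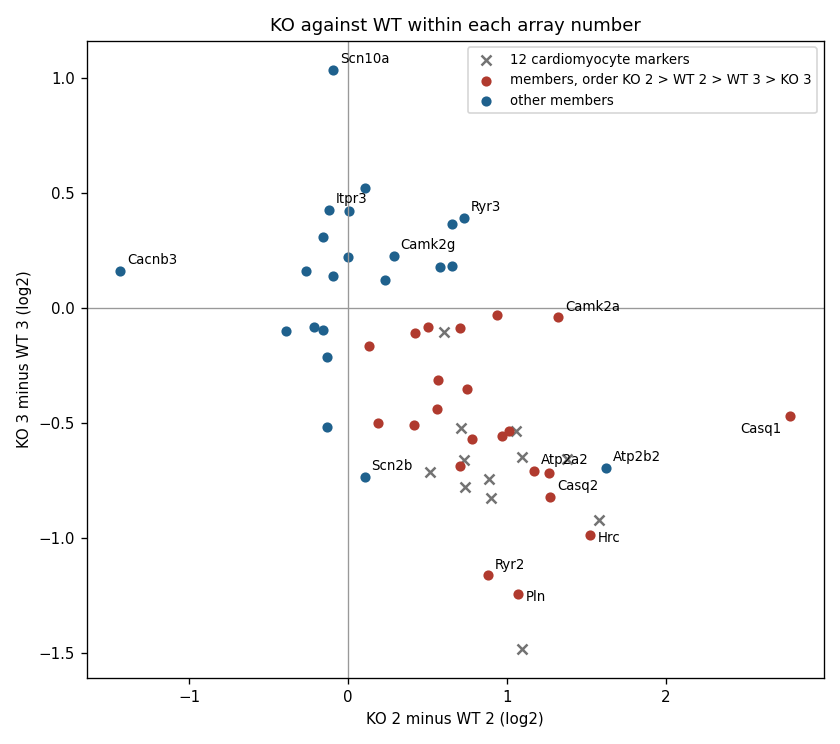
KO minus WT at number 2 (horizontal, log2) against KO minus WT at number 3 (vertical, log2) for 44 of the 46 tested members and the 12 cardiomyocyte markers, 1 point per gene and 1 array per genotype at each number. The 12 markers and the 22 members shown with their order lie to the right of and below 0, as that order requires. Pln is at 1.07 and -1.25, while Cacnb3 lies alone at the left at -1.44.

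Set against the cardiomyocyte markers of the same array, most core genes of calcium release and uptake spanned less. With the marker mean subtracted from each array, the span over the 4 arrays went from 3.17 to 0.32 for Atp2a2, from 2.58 to 0.35 for Trdn, from 2.88 to 0.41 for Casq2 and from 2.24 to 0.61 for Cacna1c. Pln went from 3.68 to 0.83, Ryr2 from 2.19 to 1.11, Jph2 from 1.74 to 1.12 and Hrc from 4.91 to 2.05, so these 4 still varied by more than the first 4. Slc8a1 went from 1.24 to 1.62 and Camk2d from 1.02 to 1.84. The markers themselves spanned far more than Slc8a1 and Camk2d, so that both had to widen, as did every gene with a narrow span. The genes named in this paragraph had been picked out by their order. Of the 46 tested members, 17 spanned less on this scale. All 17 were among the 23 with the cardiomyocyte order, and 0 of the other 23 spanned less. The values are a description. On this scale the KO arrays were both above the WT arrays for 2 members and both below for 0, limma called 0, and the members' median difference was 0.04, where that of all genes was -0.09.

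Several genes were read by more than 1 probe, and probes of the same gene parted. Of 24 members with more than 1 tested probe, 16 had the same sign of the group difference on all of them. Asph encodes both aspartate beta-hydroxylase and the junctional protein junctin. Its brightest probe (mm9 chr4:9502593-9502652) and another at chr4:9563054-9563113 had the cardiomyocyte order, at 2.52, 1.58, 3.08 and 1.14 and at 1.73, 0.18, 2.78 and -0.32 on WT 2, WT 3, KO 2 and KO 3. A probe at chr4:9379450-9379509, assigned to another transcript, measured 0.38, 0.26, 0.50 and 0.34, with little spread.

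For Slc8a1, 5 of its 7 tested probes had the cardiomyocyte order and the other two, both drawn from the same mRNA record, did not. One of that pair measured -1.92, -1.67, -2.36 and -1.12 on WT 2, WT 3, KO 2 and KO 3, which is the reverse ordering. For Atp2a2 all 4 probes kept the order, but the one assigned to a different transcript variant, at chr5:122906850-122906909, measured 2.03, 1.68, 2.68 and 1.65, a narrower range than the 6.29, 5.0, 7.46 and 4.29 of the brightest.

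**Figure D4:**
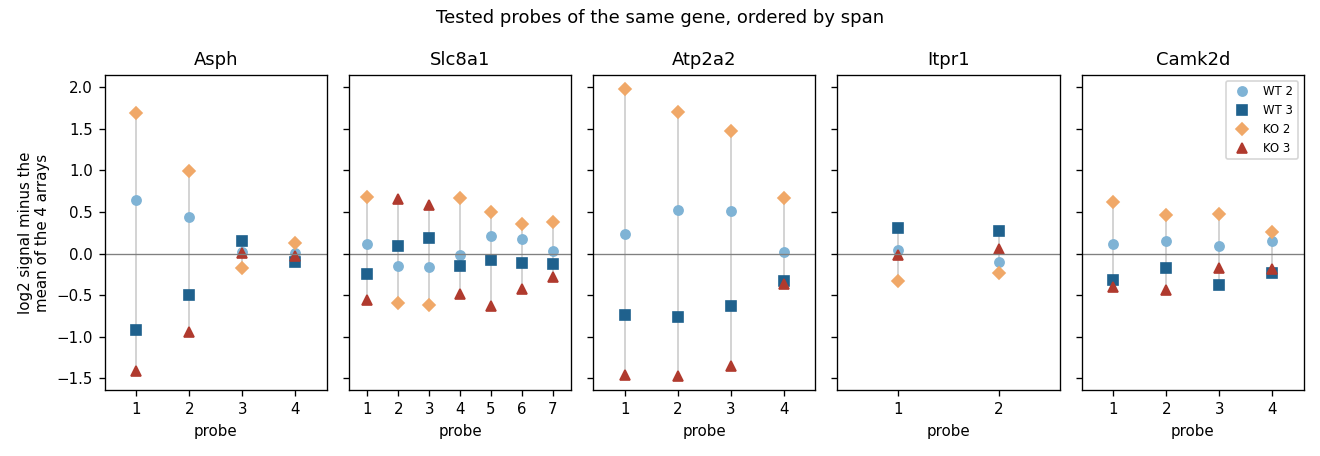
Each tested probe of Asph, Slc8a1, Atp2a2, Itpr1 and Camk2d on each array, as the log2 difference from that probe's mean over the 4 arrays, with probes ordered from the widest span to the narrowest. For Asph the first and second probes run from KO 2 at the top to KO 3 at the bottom and the other two are nearly flat. For Slc8a1 probes 2 and 3 have KO 3 at the top.

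Promoter sequence was read for what members with the same order might have in common. RefSeq promoters (GRCm38.p6) were found for 45 of the 63 members, and the 250 bases before each start were searched for the E-box CAGCTG, the MCAT element CATTCC, the MEF2 consensus and the CArG box on both strands, and for TATAAA on the gene's strand. The E-box occurred before 7 of the 15 tested genes with the cardiomyocyte order that had a promoter in the table, before 3 of the 18 tested genes without it, before 4 of the 12 members that were not tested, and before 14.7% of all 27025 genes. Of the 7 genes with both the order and the E-box, Casq1, Cacna1s and Cacnb4 lost the order with normexp. The E-box counts thus depend on the background correction. Of the 60 member promoters, 1 held the MEF2 consensus, that of Casq2, against 2.92% of all promoters. None held the CArG box, against 1.47%. CATTCC was present in 12.6% of all promoters, in 1 of the 21 of genes with the order, in 6 of the 25 of tested genes without it and in 3 of the 14 of members not tested. TATAAA was present in 7.59% of all promoters and in 1 of 21, 2 of 25 and 0 of 14 of these. These are matches of letters only, and binding was not measured.

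The promoters below are of genes with the cardiomyocyte order: 4 with the E-box, Casq2 with the MEF2 match and Pln, the member that was over 2-fold apart in opposite directions. Capitals mark the matches, which in Cacna1s are CATTCC read on the other strand, followed by the E-box. Each line gives 250 bases of GRCm38.p6 up to the start of transcription. Hrc is at chr7:45335019-45335268 (plus strand), Casq1 at chr1:172219896-172220145 (minus), Atp2a1 at chr7:126463074-126463323 (minus), Cacna1s at chr1:136052561-136052810 (plus), Casq2 at chr3:102086165-102086414 (plus) and Pln at chr10:53337436-53337685 (plus). The E-box of Hrc begins 22 bases before the start and that of Atp2a1 55 bases before it, while the MEF2 match of Casq2 begins 69 bases before and the TATAAA of Pln 219 bases before.
Hrc: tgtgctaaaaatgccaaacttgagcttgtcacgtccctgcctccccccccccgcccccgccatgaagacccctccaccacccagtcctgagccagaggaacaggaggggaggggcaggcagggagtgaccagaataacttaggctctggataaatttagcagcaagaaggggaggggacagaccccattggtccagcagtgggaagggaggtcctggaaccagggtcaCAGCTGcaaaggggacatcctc
Casq1: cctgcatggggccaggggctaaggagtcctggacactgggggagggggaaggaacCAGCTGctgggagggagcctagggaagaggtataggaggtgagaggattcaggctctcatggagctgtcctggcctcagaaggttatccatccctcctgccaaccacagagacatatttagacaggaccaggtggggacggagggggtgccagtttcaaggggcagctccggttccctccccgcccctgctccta
Atp2a1: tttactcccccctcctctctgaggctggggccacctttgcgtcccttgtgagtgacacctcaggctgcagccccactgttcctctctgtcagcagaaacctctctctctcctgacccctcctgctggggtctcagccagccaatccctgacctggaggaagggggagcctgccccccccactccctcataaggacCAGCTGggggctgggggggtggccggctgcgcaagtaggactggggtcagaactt
Cacna1s: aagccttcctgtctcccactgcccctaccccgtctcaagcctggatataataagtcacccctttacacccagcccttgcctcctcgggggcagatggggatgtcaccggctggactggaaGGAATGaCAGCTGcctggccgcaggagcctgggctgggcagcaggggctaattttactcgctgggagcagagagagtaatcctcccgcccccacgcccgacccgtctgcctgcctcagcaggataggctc
Casq2: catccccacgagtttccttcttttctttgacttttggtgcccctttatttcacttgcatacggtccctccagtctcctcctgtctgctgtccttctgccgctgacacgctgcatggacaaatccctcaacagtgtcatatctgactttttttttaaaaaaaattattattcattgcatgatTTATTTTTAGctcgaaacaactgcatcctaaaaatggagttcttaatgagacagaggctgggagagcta
Pln: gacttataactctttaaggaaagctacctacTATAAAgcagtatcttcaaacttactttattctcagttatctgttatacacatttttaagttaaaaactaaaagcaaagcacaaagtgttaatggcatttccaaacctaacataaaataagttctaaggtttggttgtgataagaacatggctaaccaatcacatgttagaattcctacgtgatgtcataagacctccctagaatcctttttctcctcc

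Other genes of these pathways were taken from a list of 54 partners and regulators, of which 49 were tested. Limma called 0 higher and 0 lower, 34 had a positive and 15 a negative difference, and the median was 0.09. Of these, 20 of 49 had the cardiomyocyte order, against 18.2% of all genes. By list the counts were 7 of 8 partners of the sodium channel, 2 of 7 calcium channel regulators, 5 of 11 partners at the store and its junction, 3 of 6 pump regulators, 1 of 7 calmodulin and calcineurin genes and 2 of 10 genes of store-operated and mitochondrial calcium. Connexin 43 (Gja1), the main gap junction protein of the ventricle, stood at 1.54, 0.33, 2.05 and 0.23 on WT 2, WT 3, KO 2 and KO 3, and sarcalumenin (Srl), a calcium-binding protein of the store, stood at 3.44, 2.12, 5.32 and 1.49. Fkbp1b, which binds the cardiac release channel, stood at 1.09, 1.57, -0.15 and 1.77, without that order. Sarcolipin (Sln), an inhibitor of SERCA best known from the atrium, stood at 5.95 on KO 2 with -4.95 on WT 3 and -2.46 on KO 3, and was not well above background on WT 2. Rcan1, an inhibitor and target of calcineurin, differed by -0.51, with KO lower at both numbers. Stac3, listed with the calcium channel regulators, differed by more, at -0.81 (limma adjusted p = 0.9999), with -1.11 at number 2 and -0.50 at number 3.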

How the data were processed

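Agilent 1-colour arrays of 2 WT and 2 KO left ventricles were read by the authors with Agilent Feature Extraction 10.7, and per the file headers the scanner files hold processed signal intensity that was background-subtracted and spatially detrended, on probes placed on mm9. The authors' value table, made in GeneSpring, holds log2 values whose column medians are all 6.78 and which matched quantile-normalized log2 processed signals within 0.01 for 99.89% to 99.95% of probes, and it was used as an alternative. Flagged spots (92 to 116 per array) were left out and spots of the same probe averaged, giving 41174 probes. Log2 intensities were scaled to each array's 75th percentile. Probes well above background on every array of a group (28305) were fitted with limma 3.58.1 in R 4.3.3, without a block, and p-values were adjusted by Benjamini-Hochberg over them. A call needed an adjusted p under 0.05 and a fold over 2. The fit was tested on simulated data. Nothing states separate cultures or pooling, so p-values measure the spread between these samples. The number of arrays limits the precision.

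Members, roles, marker and pathway lists were chosen with earlier results of these data known. Genes named by rule were a fixed set of 30 measured cardiac and skeletal genes, plus the 4 highest and 4 lowest differences. Other genes named here were chosen after their values were seen. Of 63 names, 62 are RefSeq symbols and Scn2a1 is an older one. Scn4b and Atp2b4 were not analysed here, and the values of 2 members, which stay in the counts, are not reported here. Alternatives were normexp (offset 50), quantile normalization, a median shift, other filters on dim probes, the authors' values, a replicate block, each array left out, eBayes with trend and robust settings, the methods' t-test, the mean of all tested probes, and a shift by the cardiomyocyte markers.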

Additional observations from a re-analysis of the deposited data

Results flagged for a closer look

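Xist gave a log2 processed signal of 14.13 on WT 2 and 13.24 on KO 2, where the negative controls averaged 2.31 and 1.94, in samples labelled male. It stood out as a signal outside the comparisons made here. Its part in the members' differences was not tested.

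Pln was the member whose KO minus WT values were more than 2-fold apart in opposite directions at the 2 array numbers, at 1.07 for number 2 and -1.25 for number 3. With quantile normalization its value at number 2 was 0.69, under 2-fold. Among the cardiomyocyte markers only Myh6 passed 2-fold in both directions, at 1.10 and -1.49. The median over the 46 tested members likewise took opposite signs, at 0.46 and -0.14. With normexp its signs were not opposite, at 0.43 and 0.02. With 1 array per genotype at each number, these contrasts between numbers were not tested.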

How the results depend on the processing

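Under every alternative, leave-outs included, limma or the methods' t-test called 0 members, and 0 probes overall. At an unadjusted p under 0.05 the members numbered 0 in the fits of all 4 arrays, with 2 exceptions. Normexp gave 1 of 46 members, against 1162 of 28305 probes. No filter on dim probes gave 1 of 63 members, against 723 of 41168 probes. Among all probes the count at that p in these fits ran from 16, with the shift by the cardiomyocyte markers, to 1162, with normexp. It was 410 as reported. The members' median difference stayed between 0.043 and 0.19 in the alternatives with 4 arrays and ran from -0.21 to 0.73 with an array left out. Members with both KO arrays above both WT arrays numbered 4, but 11 with normexp, 3 with quantile normalization, 3 with the authors' values and 2 with the shift by the cardiomyocyte markers, and from 8 to 31 with an array left out. Members with both below numbered 3, but 2 with normexp, 4 with no filter on dim probes, 2 with the mean of all tested probes and 0 with the shift by the cardiomyocyte markers, and from 3 to 26 with an array left out. Both counts can only stay or rise when an array is left out. The cause of the other shifts was not tested.

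Same-numbered WT and KO arrays deviated together (correlation 0.57 over tested probes), but 2 pairs do not settle a pairing. A replicate block gave 0 called members and 602 probes at an unadjusted p under 0.05, and it changed no other call.

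Of 350 differences of named members recomputed with 4 arrays, 329 kept their sign and 21 reversed. With quantile normalization these were 0.0040 for Scn3b, -0.0019 for Cacna1c, -0.035 for Asph, -0.063 for Itpr2 and -0.12 for Atp2a2. With the authors' values they were 0.0040 for Scn3b, -0.0024 for Cacna1c, -0.035 for Asph, -0.063 for Itpr2 and -0.11 for Atp2a2. With the shift by the cardiomyocyte markers they were -0.10 for Cacna1c, -0.0060 for Cacnb2, -0.052 for Asph, -0.092 for Itpr2 and -0.037 for Atp2a3. With normexp they were 0.10 for Scn3b, 0.12 for Cacna1g and -0.051 for Itpr2. A median shift gave 0.012 for Scn3b. The mean of all tested probes gave -0.034 for Cacna1c and 0.059 for Ryr2.

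With an array left out, 30 named members reversed at least once and 2 did not (Cacng8 and Ryr3). Their differences ran from -0.90 to 0.24 for Scn7a, -0.24 to 0.20 for Scn3b, -1.11 to 1.13 for Cacna1c, -0.0045 to 0.63 for Cacna1d, -1.04 to 0.94 for Cacna1g, -0.81 to 1.22 for Cacna1h, -0.32 to 1.23 for Cacna2d1, -0.90 to 1.11 for Cacnb2, -1.24 to 0.95 for Ryr2 and -1.21 to 1.67 for Casq2. They ran from -1.05 to 1.53 for Trdn, -0.67 to 1.07 for Jph2, -0.91 to 1.03 for Asph, -2.19 to 2.72 for Hrc, -0.36 to 0.012 for Itpr1, -0.25 to 0.29 for Itpr2, -0.12 to 0.43 for Itpr3, -1.35 to 1.82 for Atp2a2, -0.067 to 0.21 for Atp2a3 and -1.93 to 1.75 for Pln. The remaining ranges were -0.49 to 0.75 for Slc8a1, -0.42 to 0.32 for Atp2b1, -0.30 to 0.72 for Camk2d, -0.12 to 0.96 for Ryr1, -0.50 to 2.81 for Casq1, -1.34 to 1.89 for Atp2a1, -1.48 to 2.10 for Cacna1s, -0.87 to 2.15 for Camk2a, -1.54 to 0.27 for Cacnb3 and -0.94 to 0.31 for Scn2b.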
